A study of Mus musculus with 2 samples.

Results

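Splicing removes introns from nascent transcripts, and the genes described here encode the main protein families that carry it out. They were 76 of the 25791 gene rows of the table, taken by symbol: rows that begin with Srsf, Sfrs or Prpf followed by a digit, or with Hnrnp, Hnrp, Snrp, Sf3a, Sf3b or U2af. The 76 rows comprise 20 SR and SR-related rows, 20 hnRNP rows, 12 snRNP rows, 8 SF3 rows, 3 U2AF rows and 13 PRPF rows. The rule used no measured value. They were measured in ESREs (Extensively Self Renewing Erythroblasts), mouse erythroid precursors derived from the fetus that can be multiplied in culture for long periods. In the maturation group these cells had matured for 1 day, and in the expansion group they were kept dividing. Both groups have a C57/bl6 genetic background. The series title names transgenic β-Yac mice, but the labels of both groups give no transgene, and the sources used here do not say how many lines or animals the cells came from.

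Each gene row has 1 deposited FPKM value per group, that is, fragments scaled to transcript length and to the mapped fragments of the library. The design text speaks of biological duplicates, but no replicate values were used here, so no value below has an SD and no difference has a test. The depth is unknown. A log2 ratio is that of maturation over expansion with 1 FPKM added to both values, and counts of rows past 1.5-fold or 2-fold, or within them, use that ratio unless they are called plain. A fold printed for a single gene is the plain ratio of its FPKM values, which is farther from 1 for weak rows. A row was counted as expressed at 1 FPKM or more in at least 1 group, which held for 9263 of the 25791 rows and for 73 of the 76 splicing factor rows. The 3 rows below that level were Sfrs13b, Sfrs17b and Prpf40b. Whether a difference in FPKM reflects RNA per cell or a different mixture of cells cannot be told from bulk RNA.

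SR proteins bind exonic sequences and recruit the splicing machinery, while hnRNP proteins coat nascent transcripts and often block splice sites. The snRNPs recognise the splice sites and form the catalytic core, with SF3 and U2AF at the branch site and the 3′ splice site. Each holds a small nuclear RNA in a ring of Sm proteins or, for the U6 RNA, of LSM proteins. The PRPF proteins assemble and rearrange the later particles. Maturing erythroblasts are known for regulated exon choice and intron retention, and SF3B1, SRSF2 and U2AF1 are recurrently mutated in human myelodysplastic syndromes.

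The labelled cell type was checked with erythroid markers. Of 12 markers 11 had a log2 ratio above 0. Hba-a1, an adult alpha globin, was at 8370 FPKM in maturation and 1951 FPKM in expansion. Kit, the stem cell factor receptor, was at 1.40 FPKM in maturation and 16.8 FPKM in expansion. Of 10 mast cell and basophil markers (Kit included) 5 were expressed, all 5 with a log2 ratio below 0. The summed FPKM over all 10 was 4.84 in maturation and 41.6 in expansion, Kit included. Mcpt8 was listed at 0 in both groups and Cpa3 at 0 in maturation and 0.107 in expansion. Below the expression limit, Mcpt4 and Cma1 went the other way. Mcpt4 was at 0.715 FPKM in maturation and 0.00971 FPKM in expansion, and Cma1 at 0.288 and 0.192 FPKM. Of 8 megakaryocyte markers 4 were expressed, with sums of 4.17 FPKM in maturation and 22.8 FPKM in expansion, and Pf4 was listed at 0 in maturation and 0.0333 in expansion. Of these 4 markers 3 stood lower in maturation, while Gp9 was at 1.84 FPKM in maturation and 0.756 FPKM in expansion. Finally, 1 of 8 macrophage markers was expressed, with sums of 0.617 FPKM in maturation and 1.35 FPKM in expansion. The part of these cells or programmes in the splicing factor values was not tested.

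The promoters of 4 members are shown first, namely the 2 rows past 1.5-fold (Prpf6, highest log2 ratio, and Hnrnpa0, lowest) and the SR family rows with the highest and lowest ratio (Sfrs2 and Sfrs5). Each is the 250 bases before the transcription start, 5′ to 3′ on the strand of the gene, from RefSeq on GRCm38.p6. Capitals mark matches on either strand to the ETS core CCGGAA, the GC box GGGCGG bound by SP and KLF factors, the CCAAT box CCAAT, the TATA box TATAAA, the E-box CACGTG or the GATA sequence AGATAA. Neighbouring or overlapping matches run together.
Prpf6, chr2:181601069-181601318, plus strand: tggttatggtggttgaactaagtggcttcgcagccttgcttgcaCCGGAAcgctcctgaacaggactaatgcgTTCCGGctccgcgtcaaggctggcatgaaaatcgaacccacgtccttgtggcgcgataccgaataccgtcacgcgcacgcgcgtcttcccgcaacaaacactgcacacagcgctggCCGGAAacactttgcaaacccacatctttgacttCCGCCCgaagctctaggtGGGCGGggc
Hnrnpa0, chr13:58128557-58128806, minus strand: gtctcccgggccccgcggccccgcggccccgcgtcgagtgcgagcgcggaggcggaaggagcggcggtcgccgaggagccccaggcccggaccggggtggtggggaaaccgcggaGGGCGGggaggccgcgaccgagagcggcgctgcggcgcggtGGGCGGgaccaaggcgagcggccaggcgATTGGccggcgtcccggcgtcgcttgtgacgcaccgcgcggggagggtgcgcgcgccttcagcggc
Sfrs2 (RefSeq Srsf2), chr11:116853095-116853344, minus strand: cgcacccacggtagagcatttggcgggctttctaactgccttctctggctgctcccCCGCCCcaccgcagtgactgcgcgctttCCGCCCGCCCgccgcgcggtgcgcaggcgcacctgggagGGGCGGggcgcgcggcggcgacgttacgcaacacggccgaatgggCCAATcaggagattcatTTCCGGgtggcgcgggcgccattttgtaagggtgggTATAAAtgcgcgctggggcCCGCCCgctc
Sfrs5 (RefSeq Srsf5), chr12:80945249-80945498, plus strand: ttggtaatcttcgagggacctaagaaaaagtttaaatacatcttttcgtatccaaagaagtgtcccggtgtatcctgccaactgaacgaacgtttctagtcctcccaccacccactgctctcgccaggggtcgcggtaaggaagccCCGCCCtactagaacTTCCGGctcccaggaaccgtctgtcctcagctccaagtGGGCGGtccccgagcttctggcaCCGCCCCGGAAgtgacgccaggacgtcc
The Prpf6 stretch held 3 ETS cores, at 206, 177 and 61 bases before the start, and 2 GC boxes, while the Hnrnpa0 stretch held no ETS core, 2 GC boxes and a CCAAT box 66 bases before the start. The Sfrs2 stretch was the only one of these with a TATA box, 29 bases before the start, and also held a CCAAT box, an ETS core and 5 GC boxes. The Sfrs5 stretch held 2 ETS cores, at 89 and 23 bases before the start, and 3 GC boxes. None of the 4 stretches held an E-box or a GATA sequence.

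As a set, the splicing factor rows stood at nearly the same level in both groups. All 73 expressed members lay within 2-fold, as did 90.2% of all expressed rows. In maturation 0 members were 2-fold or more above expansion (3.13% of all expressed rows) and 0 were 2-fold or more below it (6.7%). Prpf6 alone was past 1.5-fold upward (6.3% of all expressed rows) and Hnrnpa0 alone was past 1.5-fold downward (20.4%). By the plain ratio, Prpf6 was still the 1 member past 1.5-fold upward (8.15% of all expressed rows), and 4 were past it downward (32.1%), namely Hnrnpa0, Sfrs12, Sfrs14 and Sfrs15. Plain ratios put 0 expressed members past 2-fold upward (4.24%) and 0 downward (15.1%). The other 71 members, 97.3%, lay within 1.5-fold, as did 73.3% of all expressed rows. With a minimum of 5 FPKM, 57 of 59 members (96.6%) lay within 1.5-fold, beside a background share of 69.9%. The median log2 ratio of the members was -0.15 as deposited, beside -0.25 over all expressed rows, and it was 0.06 when FPKM was rescaled to equal sums without small RNA and globin rows and 0.10 when ratios were centred on the median of all expressed rows. That rescaling multiplied maturation values by 1.16, a shift of 0.21 on the log2 scale, so the sign of small ratios depends on it. The interquartile range of the members ran from -0.24 to -0.04, and that of all expressed rows from -0.51 to 0.01. The SD of log2 ratios across rows was 0.20 for the members and 0.66 for all expressed rows. Of the 73 members 18 had a log2 ratio above 0 as deposited, 24.7% beside 25.9% of all expressed rows, against 45 after rescaling. Set against the all-row median, 18 of 73 members were below and 55 above, where 50% of rows are below by construction. That balance depended on the treatment of weak rows, with 33 of 73 below at a pseudocount of 5 and 57 of 76 below with no filter on low values. It also depended on level, taken as the mean FPKM over the groups. Members had a median of -0.24 beside -0.29 for all rows at 1 to 5 FPKM, and -0.13 beside -0.20 at 5 to 20 FPKM. From 20 to 200 FPKM, the level of 30 members, the members were lower, at -0.14 beside -0.08.

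The members were well expressed. Their median level was 14.9 FPKM in maturation and 16.1 FPKM in expansion, where the median over all expressed rows was 3.38 and 4.34 FPKM. The 76 rows summed to 1749 FPKM in maturation and 1912 FPKM in expansion, 0.420% and 0.465% of all FPKM. Without small RNA rows, which held 25.4% of the FPKM in maturation and 17.6% in expansion, the shares were 0.563% and 0.565%. Over 50 FPKM there were 9 members in maturation and 10 in expansion. Ratios were also split by level. All 16 members with a mean of 1 to 5 FPKM over the groups lay within 1.5-fold with the pseudocount, beside 74.0% of the rows at that level, and 13 of 16 did by the plain ratio, beside 55% of those rows. Of 27 members from 5 to 20 FPKM 26 did (71.8% of rows), and of 30 members from 20 to 200 FPKM 29 did (75.1% of rows), with the same member counts by the plain ratio (66.8% and 74.1% of rows).

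**Figure D1:**
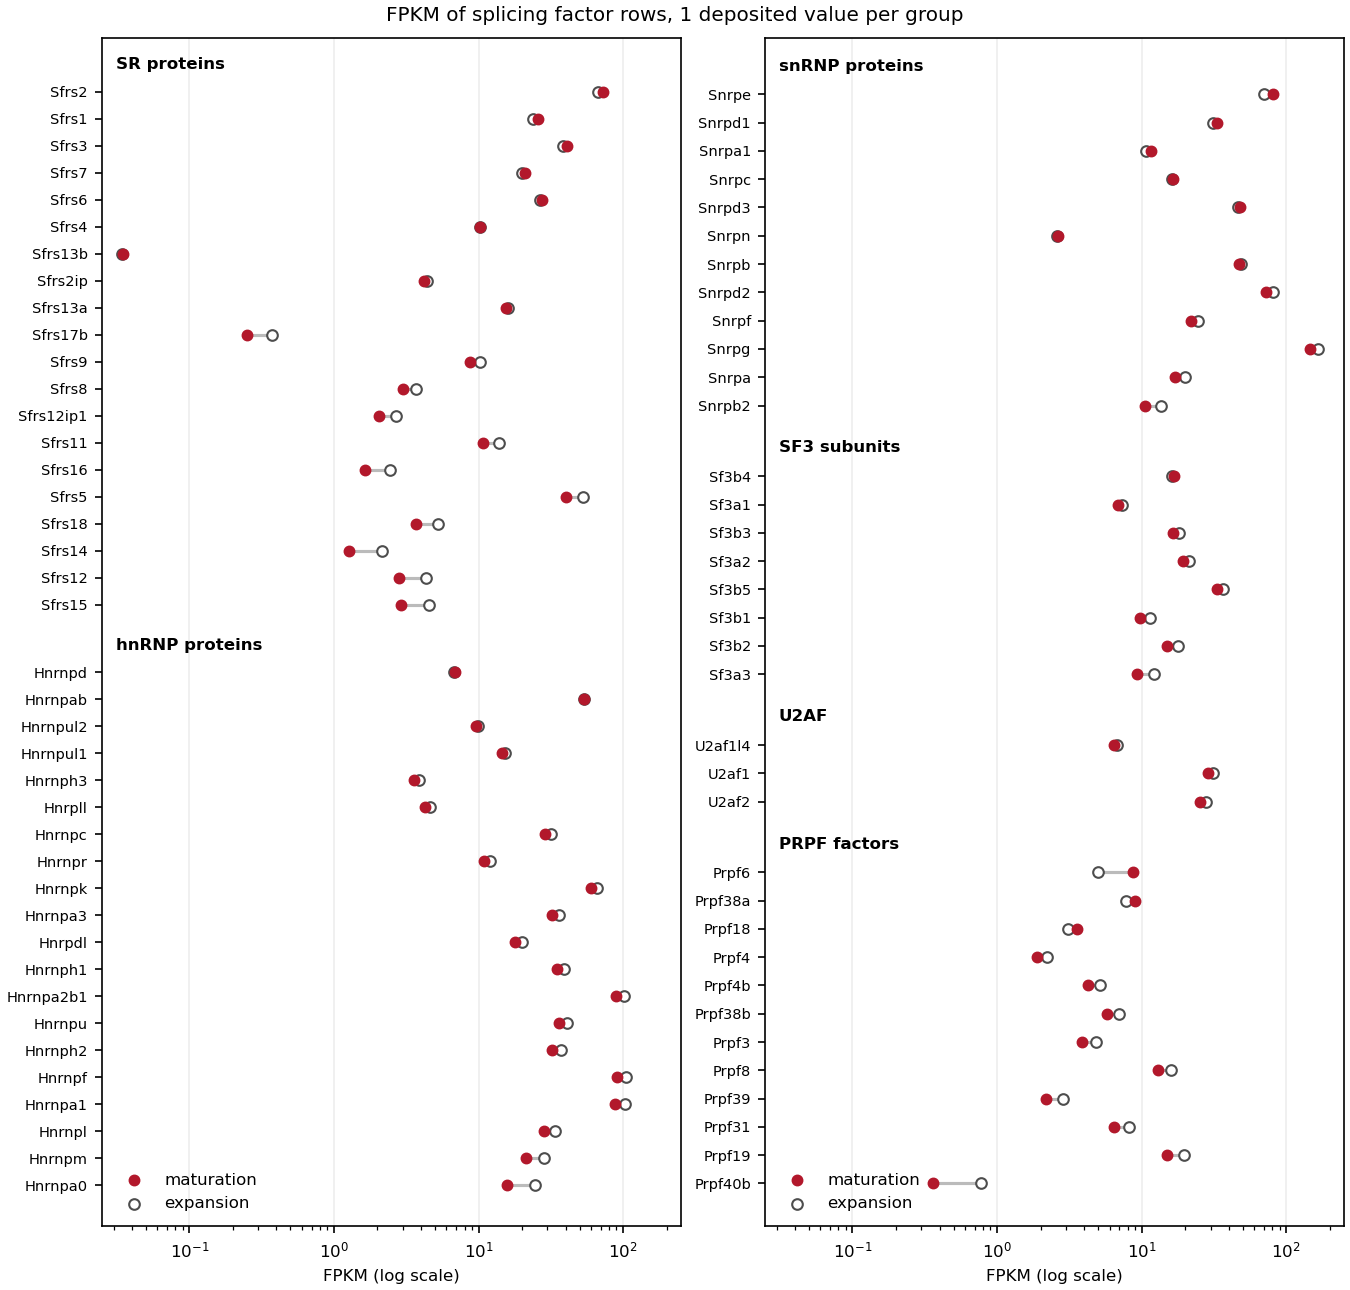
FPKM of the splicing factor rows reported here (log axis) in maturation (filled red) and expansion (open), grouped by role and ordered by log2 ratio within a role; each point is 1 deposited value. Most pairs of points nearly touch, with Prpf6 at 8.66 FPKM in maturation and 5.02 FPKM in expansion the widest pair to the right.

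Among the SR rows, 10 expressed rows carry an Srsf name in RefSeq and 8 encode proteins with serine and arginine rich stretches that RefSeq names otherwise, a division by name made with the values known. The SR family rows had a median log2 ratio of 0.03 as deposited (0.22 rescaled), with 6 of 10 above 0. The SR-related rows had a median of -0.39 as deposited (-0.24 rescaled), with 0 of 8 above 0 as deposited and 1 of 8 after rescaling. The difference between these medians was 0.42 on the log2 scale and was not tested. It covers only rows with an Sfrs symbol. A separate list of SR-related proteins and SR protein kinases outside that rule had a median of -0.22 over 18 rows, with 4 above 0. The SR-related rows are weakly expressed, and all 4899 rows with a mean of 1 to 5 FPKM had a median of -0.29.

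Sfrs2, which encodes SRSF2 (SC35), was the most abundant SR row, at 73.1 FPKM in maturation and 67.5 FPKM in expansion. It lies on chromosome 11 (mm9 116711211 to 116714408) and held 24.7% of the summed SR FPKM in maturation and 21.8% in expansion. Sfrs3, a small SR protein that also takes part in mRNA export, was at 41.1 FPKM in maturation and 38.7 FPKM in expansion, and its close relative Sfrs7 was at 20.9 and 19.9 FPKM. Sfrs1, which encodes SF2/ASF, the prototype of the family, was at 25.6 FPKM in maturation and 23.96 FPKM in expansion. Sfrs6 and Sfrs4, with long arginine and serine rich tails, were at 27.5 and 26.7 FPKM and at 10.3 and 10.2 FPKM. These 6 rows were between 1.01-fold and 1.08-fold. Sfrs5 lay apart from them, at 40.3 FPKM in maturation and 53.2 FPKM in expansion (0.758-fold). Sfrs5 was therefore the second SR row in expansion and lay just below Sfrs3 in maturation. Sfrs11 was at 10.8 FPKM in maturation and 13.9 FPKM in expansion, Sfrs9 at 8.72 and 10.3 FPKM, and Sfrs13a (RefSeq Srsf10) at 15.4 and 16 FPKM. Sfrs13b (RefSeq Srsf12) was listed near 0, at 0.0347 and 0.0343 FPKM.

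The SR-related rows with the lowest ratios were Sfrs15, Sfrs12 and Sfrs14. Sfrs15 (RefSeq Scaf4), whose product binds the tail of RNA polymerase II, was at 2.90 FPKM in maturation and 4.55 FPKM in expansion (0.637-fold). Sfrs12 (Srek1), a regulator of splice site choice, was at 2.80 FPKM in maturation and 4.36 FPKM in expansion (0.641-fold). Sfrs14 (Sugp2) was at 1.28 FPKM in maturation and 2.15 FPKM in expansion (0.595-fold), and shares its locus in the table with Armc6, at 1.74 and 1.52 FPKM. These 3 rows passed 1.5-fold lower with a pseudocount of 0.1 and by the plain ratio, but not with a pseudocount of 1. Sfrs18 (Pnisr) was at 3.71 FPKM in maturation and 5.23 FPKM in expansion, Sfrs16 (Clasrp) at 1.64 and 2.44 FPKM, and Sfrs8 (Sfswap) at 3.01 and 3.71 FPKM. Sfrs12ip1 (Srek1ip1) was at 2.06 FPKM in maturation and 2.69 FPKM in expansion. Sfrs2ip (Scaf11) was the SR-related row nearest to equal levels, at 4.23 and 4.37 FPKM. Sfrs17b (Akap17b) was below the expression limit, at 0.251 and 0.374 FPKM.

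**Figure D2:**
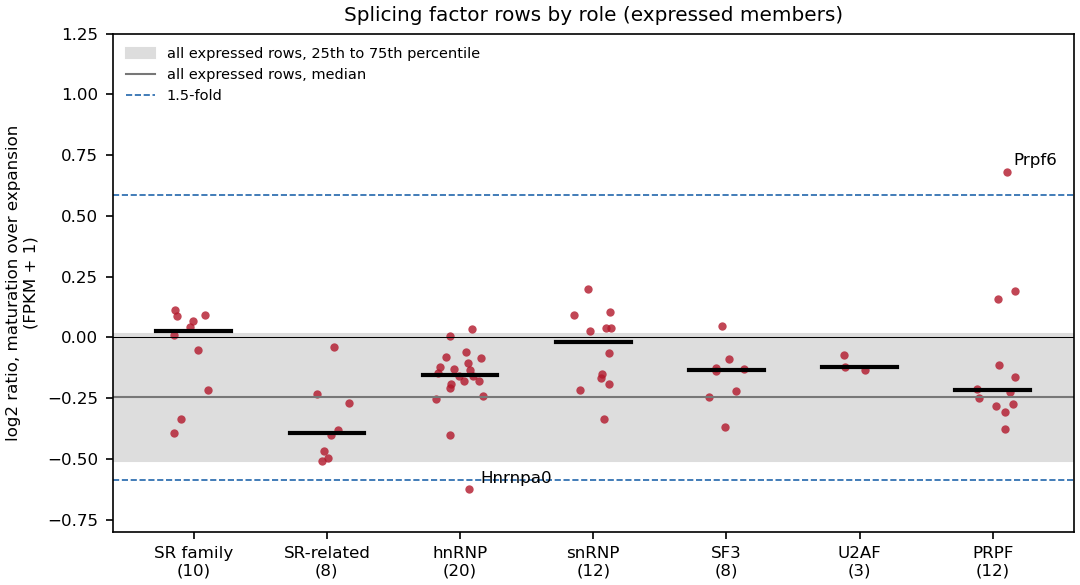
Log2 ratio of maturation over expansion (FPKM + 1, as deposited) of each expressed splicing factor row by role, with the number of rows in brackets; black bars are medians, the grey band and line are the interquartile range and median of all expressed rows, and dashed lines mark 1.5-fold. The SR family median lies at 0.03 and the SR-related median at -0.39; rescaling without small RNA and globin rows puts them at 0.22 and -0.24.

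The hnRNP rows were the most abundant role, with a summed level of 678 FPKM in maturation and 774 FPKM in expansion. Of the 20 rows, all expressed, 18 had a log2 ratio below 0 as deposited, with a median of -0.15, but 5 of 20 did after rescaling, with a median of 0.05. The 3 highest rows were Hnrnpf, Hnrnpa2b1 and Hnrnpa1. Hnrnpf, which binds runs of guanines, was at 91.2 FPKM in maturation and 106 FPKM in expansion. Hnrnpa2b1 was at 89.3 FPKM in maturation and 101 FPKM in expansion. Hnrnpa1, a repressor of splice sites on chromosome 15 (mm9 103070863 to 103075386), was at 87.6 FPKM in maturation and 104 FPKM in expansion (0.845-fold). These 3 rows together with Hnrnpk, a poly(C)-binding protein at 59.5 and 65.5 FPKM, and Hnrnpab, at 53.7 and 53.5 FPKM, were the hnRNP rows over 50 FPKM in both groups. Hnrnpk shares its locus with LOC100503714, at 71.8 FPKM in maturation and 74.0 FPKM in expansion, so reads may be divided between these rows.

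Hnrnpa0, an RNA-binding protein related to Hnrnpa1, had the lowest log2 ratio of the expressed members with a pseudocount of 1, though the plain fold of Sfrs14 was lower. It was at 15.7 FPKM in maturation and 24.7 FPKM in expansion (0.635-fold, log2 ratio -0.62, and -0.43 after rescaling), on chromosome 13 (mm9 58227240 to 58229917). Among the hnRNP rows Hnrnpm came next, at 21.4 FPKM in maturation and 28.6 FPKM in expansion, followed by Hnrnpl, which binds CA repeats, at 28.3 and 33.9 FPKM. At the other end Hnrnpd, known for binding AU-rich mRNAs, was at 6.92 FPKM in maturation and 6.73 FPKM in expansion, and Hnrnpul2 was at 9.53 and 9.97 FPKM. The remaining hnRNP rows lay between 0.873-fold and 0.943-fold. Among them Hnrnpu, a large nuclear matrix protein, was at 35.9 FPKM in maturation and 40.8 FPKM in expansion, Hnrnpc, which binds uridine tracts, at 29.0 and 31.7 FPKM, Hnrnpr at 10.9 and 12.0 FPKM, and Hnrnph3 at 3.58 and 3.85 FPKM.

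Related hnRNP genes stood in similar proportions in both groups. Hnrnpa1 equalled 98.0% of Hnrnpa2b1 in maturation and 102% in expansion, and Hnrnpa3, at 32.3 and 35.9 FPKM, equalled 36.9% and 34.7% of Hnrnpa1. Hnrnph2, on the X chromosome, was at 32.4 FPKM in maturation and 37.0 FPKM in expansion, and Hnrnph1 at 34.7 and 38.9 FPKM. Hnrnpul1 was at 14.5 and 15.3 FPKM, and Hnrnpul2 equalled 66.0% of it in maturation and 65.0% in expansion. Hnrpll, at 4.24 and 4.64 FPKM, equalled 15.0% and 13.7% of Hnrnpl. Hnrpdl, at 17.9 and 20.1 FPKM, equalled 259% of its neighbour Hnrnpd in maturation and 299% in expansion, the widest shift among these 6 pairs. Hnrnpd and Hnrpdl lie 54.6 kb apart on chromosome 5, and near-identical genes and pseudogenes of the family can share reads.

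The snRNP rows had a median log2 ratio of -0.02 as deposited, with 6 of 12 above 0, and of 0.16 after rescaling, with 10 of 12 above 0. The 7 proteins of the Sm ring, which form 1 complex around most small nuclear RNAs of the spliceosome, did not have equal RNA levels. Snrpg was the most abundant of all members, at 145 FPKM in maturation and 166 FPKM in expansion, and Snrpf the lowest of the ring, at 21.8 and 24.7 FPKM. Snrpe was at 80.5 FPKM in maturation and 69.9 FPKM in expansion (1.15-fold), the highest ratio of the role. Snrpd2 was at 72.9 FPKM in maturation and 81.0 FPKM in expansion, Snrpd3 at 47.7 and 46.4 FPKM, Snrpb at 46.9 and 49.0 FPKM, and Snrpd1 at 33.4 and 31.0 FPKM. The order of the 7 levels was thus the same in both groups except that Snrpe stood above Snrpd2 in maturation and below it in expansion, and Snrpd3 likewise against Snrpb. Snrpd3 and Snrpb are close in level, and 1 value per group gives no measure of precision for such changes of order. The sum over the ring was 449 FPKM in maturation and 468 FPKM in expansion (0.958-fold as deposited).

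Of the proteins particular to 1 particle, Snrpa of the U1 snRNP was at 17.0 FPKM in maturation and 19.9 FPKM in expansion, and Snrpc of the same particle at 16.6 and 16.1 FPKM. Snrpa1 of the U2 snRNP was at 11.6 FPKM in maturation and 10.8 FPKM in expansion, whereas its partner Snrpb2 was at 10.5 and 13.5 FPKM (0.777-fold), the lowest ratio of the role. Snrpb2 equalled 61.9% of its relative Snrpa in maturation and 68.0% in expansion. Snrpn, an imprinted relative of Snrpb that is mostly used in neurons, was at 2.65 FPKM in maturation and 2.58 FPKM in expansion, 5.64% and 5.26% of Snrpb. It shares its locus with Snurf, at 2.82 and 2.75 FPKM, which is made from the same transcript.

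The SF3 subunits, which hold the U2 snRNP on the branch site, had a median log2 ratio of -0.13 as deposited, with 7 of 8 below 0, and of 0.07 after rescaling, with 3 of 8 below 0. Sf3b1, the subunit that contacts the branch site, was at 9.70 FPKM in maturation and 11.5 FPKM in expansion (0.845-fold), on chromosome 1 (mm9 55042013 to 55084322). Sf3a3 had the lowest ratio, at 9.26 FPKM in maturation and 12.3 FPKM in expansion (0.756-fold), and its locus also carries Mir697, at 6.84 and 0.865 FPKM. Sf3b4 had the highest, at 16.7 and 16.1 FPKM. Sf3b5, the smallest of these proteins, was the most abundant, at 33.3 FPKM in maturation and 36.8 FPKM in expansion. Sf3a2 was at 19.3 FPKM in maturation and 21.2 FPKM in expansion, Sf3b3 at 16.6 and 18.2 FPKM, Sf3b2 at 14.9 and 17.9 FPKM, and Sf3a1 at 6.81 and 7.31 FPKM. Sf3b4 stood above Sf3b3 and Sf3b2 in maturation and below both in expansion, and Sf3b1 stood above Sf3a3 in maturation and below it in expansion. Some of these levels are close, and with 1 value per group the changes of order have no measure of precision. A further SF3b subunit is listed as 0610009D07Rik, which RefSeq names Sf3b6, at 15.96 FPKM in maturation and 16.99 FPKM in expansion. It was looked up after the values were seen.

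The U2AF rows differed least among themselves. U2af2, which binds the polypyrimidine tract, was at 25.4 FPKM in maturation and 27.9 FPKM in expansion, and U2af1, which binds the AG at the 3′ splice site, at 28.8 and 31.4 FPKM. U2af1l4, a relative of U2af1, was at 6.39 FPKM in maturation and 6.77 FPKM in expansion, 22.2% and 21.6% of U2af1. Their ratios lay between 0.909-fold and 0.944-fold as deposited, and after rescaling all 3 were above 1, with a median log2 ratio of 0.08.

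**Figure D3:**
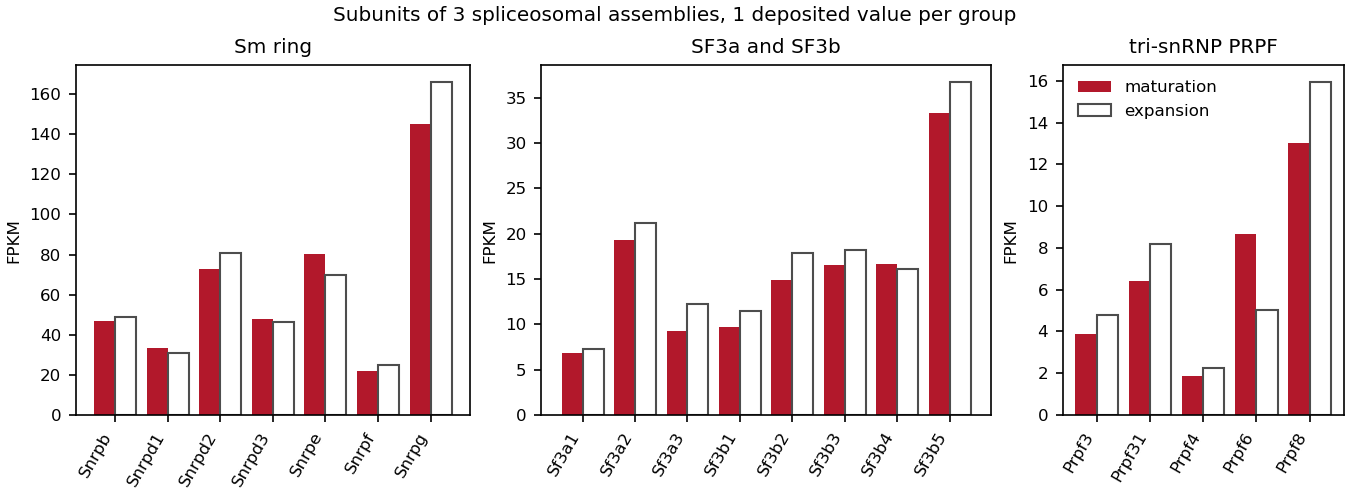
FPKM of the subunits of the Sm ring, of SF3a and SF3b, and of the PRPF proteins of the tri-snRNP, with maturation (red) left of expansion (open); each bar is 1 deposited value and axes start at 0. Prpf6 is the tri-snRNP row that stands higher in maturation, at 8.66 FPKM against 5.02 FPKM in expansion.

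The PRPF rows had the lowest median level of the 6 roles, 6.11 FPKM in maturation and 6.02 FPKM in expansion. They had a median log2 ratio of -0.22 as deposited (-0.04 rescaled and 0.03 centred) and an SD across rows of 0.30, the largest of the 6 roles. Their interquartile range, from -0.28 to -0.05, was narrower than that of the SR rows, from -0.39 to 0.03. Prpf6, which bridges the U5 and U4/U6 particles, had the highest log2 ratio of all members. It was at 8.66 FPKM in maturation and 5.02 FPKM in expansion (1.72-fold, log2 ratio 0.68, and 0.87 after rescaling), on chromosome 2 (mm9 181336024 to 181390366). No other row shares its locus. The 4 other PRPF proteins of the tri-snRNP had log2 ratios below 0 as deposited and after rescaling, but that of Prpf4 was 0.08 after centring. Prpf8, the scaffold of the catalytic centre, was at 13.0 FPKM in maturation and 15.9 FPKM in expansion, and Prpf31 at 6.43 and 8.20 FPKM. Prpf3 was at 3.89 FPKM in maturation and 4.81 FPKM in expansion, and Prpf4 at 1.88 and 2.23 FPKM. In maturation Prpf6 thus stood above Prpf31 and below Prpf8, while in expansion it stood below both and close to Prpf3.

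Among the other PRPF rows, Prpf38a, a protein of the precatalytic spliceosome, was at 8.97 FPKM in maturation and 7.74 FPKM in expansion (1.16-fold), and its relative Prpf38b at 5.79 and 6.92 FPKM. Prpf38b therefore equalled 64.5% of Prpf38a in maturation and 89.4% in expansion. Prpf18, a factor of the last splicing step, was at 3.56 FPKM in maturation and 3.09 FPKM in expansion (1.15-fold). Prpf19, the ubiquitin ligase of the complex named after it, was at 14.9 FPKM in maturation and 19.7 FPKM in expansion (0.758-fold). The kinase Prpf4b was at 4.28 FPKM in maturation and 5.12 FPKM in expansion, and Prpf39 at 2.17 and 2.86 FPKM. Prpf39 shares its locus with Fkbp3, at 14.03 FPKM in maturation and 22.3 FPKM in expansion. Prpf40b was below the expression limit, at 0.363 FPKM in maturation and 0.773 FPKM in expansion. Leaving out the 6 members that share a locus with another expressed row kept the counts past 1.5-fold at 1 higher and 1 lower.

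Outside these families, 162 further genes of the splicing pathway were looked up in 9 lists, and 157 were expressed. Past 2-fold there were 0 upward and 1 downward, and past 1.5-fold 1 upward and 10 downward. The last 2 counts moved with the setting, to 5 upward and 4 downward after rescaling, 5 and 1 after centring, and 2 and 26 by the plain ratio. The background shares are those given for the members, and 93.0% of the 157 lay within 1.5-fold with the pseudocount. Their median log2 ratio was -0.20 as deposited and -0.02 after rescaling. The row past 2-fold downward was Cugbp2 (RefSeq Celf2), a regulator of alternative exons, at 0.438 FPKM in maturation and 2.25 FPKM in expansion, joined by Srpk2 by the plain ratio. Rbm38, an RNA-binding protein known in erythroid cells for promoting a late exon of protein 4.1, was the row past 1.5-fold upward, at 13.8 FPKM in maturation and 7.79 FPKM in expansion, joined by Snrnp25 by the plain ratio.

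The lists near the core particles had medians between -0.25 and -0.05 as deposited. The tri-snRNP and minor spliceosome list had a median log2 ratio of -0.13 over 18 rows (0.03 rescaled). Its highest row was Snrnp25, a protein of the minor spliceosome, at 8.53 FPKM in maturation and 5.43 FPKM in expansion, followed by Snrnp27 at 9.94 and 7.31 FPKM. Its lowest were Cd2bp2, at 4.44 FPKM in maturation and 6.85 FPKM in expansion, and the helicase Snrnp200, at 7.18 and 10.6 FPKM. The LSM list, of which most but not all rows belong to the ring on the U6 RNA, had a median of -0.05 over 9 rows (0.15 rescaled). It ran from Lsm3 at 24.96 FPKM in maturation and 20.2 FPKM in expansion to Lsm1, of the cytoplasmic decay ring, at 1.24 and 1.95 FPKM. The U1-associated list had a median of -0.10 over 7 rows (0.09 rescaled), with Tial1 highest at 5.13 and 4.28 FPKM and Tia1 lowest at 1.66 and 2.76 FPKM. Snrnp70, the U1 protein outside the symbol rule, was at 22.7 FPKM in maturation and 27.1 FPKM in expansion. The U2-associated list had a median of -0.25 over 16 rows (-0.08 rescaled), with the SF3b subunit Phf5a highest at 18.2 FPKM in maturation and 12.8 FPKM in expansion, and Rbm17 lowest at 10.04 and 14.05 FPKM. The exon junction and export list had a median of -0.08 over 11 rows (0.12 rescaled), from Thoc4 at 23.4 and 19.99 FPKM to Nxf1 at 10.5 and 13.7 FPKM.

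The lists for assembly and late steps had lower medians than those lists, but not far from the -0.25 of all expressed rows. Rows with a mean of 1 to 5 FPKM had a median of -0.29, and rows of 5 to 20 FPKM -0.20. The snRNP assembly list, with the SMN complex and the methylosome that load Sm proteins onto RNA, had a median of -0.33 over 15 rows (-0.14 rescaled). Wdr77, a methylosome subunit, was at 3.24 FPKM in maturation and 6.24 FPKM in expansion, Gemin4 at 2.22 and 3.50 FPKM, and Smn1 at 5.04 and 7.29 FPKM, while Gemin7 was at 10.6 and 7.45 FPKM. The list of PRP19, B, C and late-step proteins had a median of -0.28 over 29 rows (-0.11 rescaled). Past 1.5-fold downward were 3 of its rows (20.4% of all expressed rows), and 10 by the plain ratio (32.1%). The 3 were Ddx41, a helicase, at 3.21 FPKM in maturation and 6.38 FPKM in expansion, Ik at 7.06 and 11.7 FPKM, and Sdccag10 (RefSeq Cwc27) at 1.22 and 2.39 FPKM. Bud31 had the highest ratio of that list, at 29.4 and 23.6 FPKM. In the list of SR-related proteins and kinases (median -0.22 over 18 rows, -0.05 rescaled), Srpk1 and Srpk2 had ratios below 1. So had most expressed rows, of which 25.9% had a log2 ratio above 0. Srpk1 was at 4.75 FPKM in maturation and 7.55 FPKM in expansion and Srpk2, just at the expression limit, at 0.318 and 1.01 FPKM. The nuclear kinases Clk1, Clk2, Clk3 and Clk4 had between 0.632-fold and 0.829-fold, while the kinase Dyrk1a was at 2.44 FPKM in maturation and 2.19 FPKM in expansion. Srrm1 was highest there, at 20.1 FPKM in maturation and 15.97 FPKM in expansion. Among the 34 other regulators (median -0.13, 0.02 rescaled), 5 were past 1.5-fold downward (20.4% of all expressed rows), and 6 by the plain ratio (32.1%). They included Cugbp2, Nono, Matr3 and Rod1 (RefSeq Ptbp3). Nono, a paraspeckle protein, was at 19.4 FPKM in maturation and 33.3 FPKM in expansion, Matr3 at 6.87 and 11.2 FPKM, and Rod1 at 6.99 and 11.3 FPKM.

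**Figure D4:**
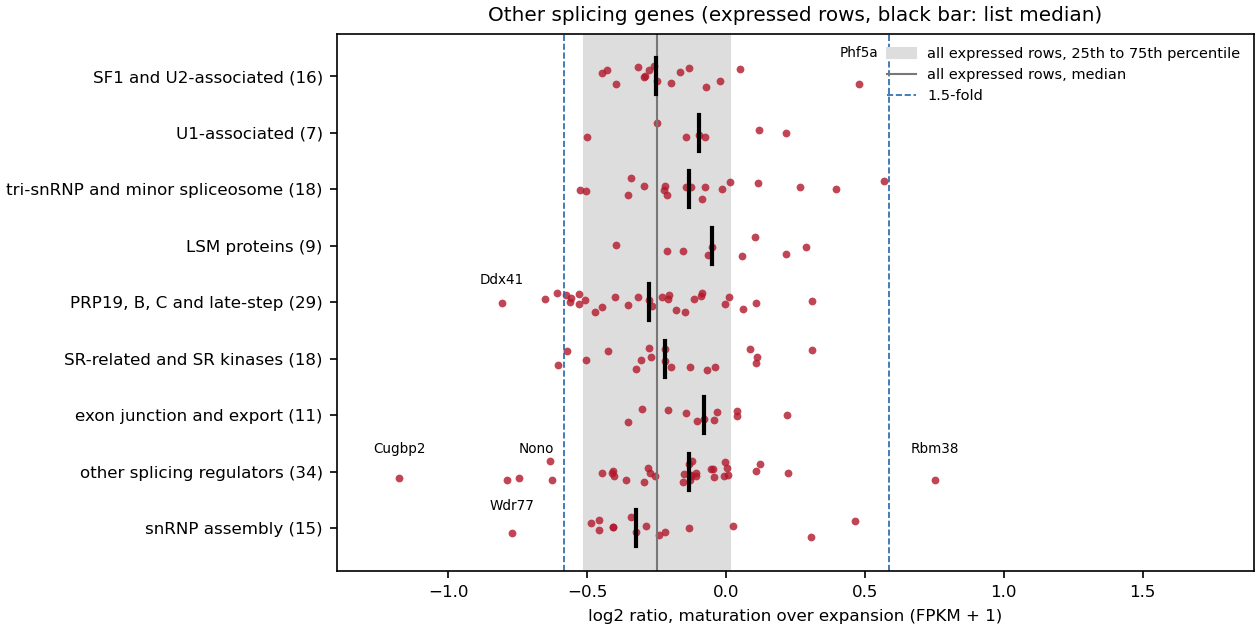
Log2 ratio of maturation over expansion (FPKM + 1, as deposited) of 157 expressed splicing genes outside the families above, by list with the number of rows in brackets; black bars are list medians, the grey band and line are the interquartile range and median of all expressed rows, and dashed lines mark 1.5-fold. Rbm38 lies furthest right at 0.75 and Cugbp2 furthest left at -1.18; rescaling turns the overall median of -0.20 into -0.02.

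Promoter windows were compared by sequence. RefSeq windows (250 bases before to 50 after a start, GRCm38.p6) were found for 66 of the 76 rows, 90 windows in all, and windows of 1 gene can overlap. Their median GC content was 60.3%, beside 60.7% for the 8380 windows of expressed rows and 52.7% for all 32851 windows. The ETS core was in 45.6% of the member windows, 32.4% of the windows of expressed rows and 14.9% of all windows, and by role in 6 of 7 SF3 windows, 13 of 25 SR windows and 9 of 27 hnRNP windows. The CCAAT box was in 44.4% of the member windows, 39.6% of the windows of expressed rows and 37.4% of all windows, with 17 of 27 among the hnRNP rows. The GC box was in 64.4%, 63.7% and 35.7% of these sets, the E-box in 13.3%, 11.1% and 7.15%, the TATA box in 8.89%, 7.0% and 13.6%, and the GATA sequence in 4.44%, 6.42% and 11.2%. A match is a string of letters and not a measured binding site.

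Some members are neighbours in the genome. In 6 pairs the loci lie under 500 kb apart on mm9, and their ratios are given side by side. Hnrnpa0 and Hnrnpk lie 263 kb apart on chromosome 13, with log2 ratios of -0.62 and -0.14. Prpf3 and Sf3b4 lie 317 kb apart on chromosome 3, with -0.25 and 0.05, and Hnrpll and Sfrs7 138 kb apart on chromosome 17, with -0.10 and 0.07. Sfrs13a and Hnrnpr on chromosome 4, 441 kb apart, had -0.05 and -0.13, and Snrpd2 and Sfrs16 on chromosome 7, 428 kb apart, had -0.15 and -0.38.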

How the data were processed

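Per the labels' protocols, total RNA came from a Qiagen kit and libraries from a Bioo Scientific Nextflex kit. The deposited table gives FPKM, per the file headers, with a single value for each group. The submitters' processing notes name Cuffdiff 2.0.2 and mm9; the aligner, the annotation, the read length and how the duplicates were combined are not stated in the sources used here. FPKM depends on the modelled transcript length, and reads that fit similar genes are divided by the software.

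Ratios used a pseudocount of 1 and rows reaching an FPKM of 1 in either group; limits of 2-fold and 1.5-fold describe size only. The 2-fold counting was run on simulated rows with a known shift beyond that limit, which checks the code only. It did not cover the 1.5-fold limit and says nothing about precision. Alternatives were pseudocounts of 0.1 and 5, no filter, a minimum FPKM of 5, centring, rescaling, and, chosen after seeing the data, leaving out rows with a shared locus and the plain FPKM ratio with no pseudocount. Table starts count from 0 (the spans of 190 of 190 microRNA rows then match RefSeq lengths) and are printed counted from 1.

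The members and lists were chosen with earlier results of these data known. Values are given for members past 2-fold, and in each role for the 3 highest and lowest ratios and the 3 highest levels. They are also given for fixed pairs of relatives and for others as the text needs. From each list the highest and lowest ratios are given, with some further genes that are not always the next largest. Snrnp70, Dyrk1a, the Clk kinases and rows with shared loci were named after their values were seen. Values of 1 member and 1 list gene are not reported here; both are in the counts and medians. Older symbols were matched through RefSeq (GRCm38.p6) synonyms on the same chromosome. Of the list entries 190 were used by symbol and 10 by synonym; 2 that are members and 1 duplicate were left out. Python 3.11.15, numpy 2.4.6, pandas 2.3.3 and matplotlib 3.10.9 were used.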

Additional observations from a re-analysis of the deposited data

How the results depend on the processing

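The 2-fold counts of the members (0 higher, 0 lower) were the same under all 8 alternatives. The 1.5-fold counts were 0 and 0 with a pseudocount of 5, and 1 higher and 4 lower with 0.1 and by the plain ratio, while 0 were lower after centring or rescaling; Prpf6 stayed past 1.5-fold except with a pseudocount of 5. Members below the median of all rows numbered 33 of 73 with a pseudocount of 5 and 57 of 76 with no filter. The median of the members was 0.10 after centring and 0.058 after rescaling. By role the medians after centring and rescaling were 0.023 and -0.049 (SR), 0.093 and 0.050 (hnRNP), 0.23 and 0.16 (snRNP), 0.11 and 0.067 (SF3), 0.13 and 0.082 (U2AF) and 0.029 and -0.042 (PRPF); the SR median was -0.12 with a pseudocount of 5 and 0.012 at a minimum FPKM of 5. Rescaled ratios of summed FPKM were 1.10 (SR), 1.01 (hnRNP), 1.10 (snRNP), 1.04 (SF3), 1.06 (U2AF) and 1.04 (PRPF), against 0.953, 0.877, 0.954, 0.897, 0.916 and 0.899 as deposited. For the other splicing genes, 1.5-fold counts were 2 higher and 25 lower with a pseudocount of 0.1, 2 and 26 by the plain ratio, 0 and 1 with 5, 5 and 1 after centring, and 5 and 4 after rescaling; 2-fold lower counts were 2 with a pseudocount of 0.1 and by the plain ratio, and 0 with 5, at a minimum FPKM of 5 and after centring. By construction, centring and rescaling move nearly all ratios upward and the pseudocount acts most on weak rows; the cause was not tested further. No paired analysis was possible because there is 1 value per group, and replicates could not be left out. The depth is unknown, so no precision can be given.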

Other observations

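Among 37 other rows named Rbm with a number, RNA-binding motif proteins of which many act in splicing, 28 were expressed and 26 lay within 1.5-fold with a pseudocount of 1 (73.3% of all expressed rows). Their median log2 ratio was -0.17 as deposited and -0.01 after rescaling. Rbm28, a nucleolar protein, was at 2.12 FPKM in maturation and 4.79 FPKM in expansion, and Rbm3, a cold-inducible protein, was the most abundant of the family at 91.8 and 84.4 FPKM.

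Rows named Ddx or Dhx with a number, taken by symbol and mostly but not all RNA helicases, had 44 of 52 expressed. Their median log2 ratio was -0.31 as deposited and -0.15 after rescaling. Past 1.5-fold with a pseudocount of 1 there were 7 downward (20.4% of all expressed rows) and 0 upward (6.3%). By the plain ratio more rows were past it downward, such as Ddx31 (0.522-fold) and Dhx35 (0.555-fold), where the background share is 32.1%. The count thus depends on the pseudocount, and no difference from the background is read from it. Ddx21 and Ddx10, of ribosome assembly, were at 15.6 FPKM in maturation and 30.3 FPKM in expansion and at 1.84 and 4.02 FPKM. Ddx5, a helicase with roles in splicing and transcription, was at 46.7 and 53.2 FPKM, and the spliceosome disassembly helicase Dhx15 at 20.1 and 19.4 FPKM. Both families were chosen by name after other values were seen, and some of their rows also stand in the lists of splicing genes.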
